A study of Homo sapiens with 8 samples.

Results

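The ATP-binding cassette (ABC) genes of subfamilies A to G were followed in human embryonic stem cells and embryoid bodies given ethanol. The members were the genes whose symbol is ABC, a subfamily letter from A to G and a number, each read from the probe set that names only that gene and has the highest mean signal. RefSeq lists 46 such genes. The array reads 42 of them through a probe set naming no other gene, as it does for 19775 genes in all. The other 4 were not analysed here. Subfamily A held 11 members, B 8, C 11, D 3, E 1, F 3 and G 5.

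RNA was measured on 8 Affymetrix expression arrays, 2 (A and B) in each of 4 groups. The groups were embryoid bodies at 20 mM ethanol, embryoid bodies at 0 mM, undifferentiated cells at 20 mM and undifferentiated cells at 0 mM, with an exposure of 24 h. Embryoid bodies are aggregates in which pluripotent cells start to differentiate. All groups carried the label of H9, an established human embryonic stem cell line, and all were grown in mTeSR, a defined feeder-free medium. The labels name no age or time in culture of the embryoid bodies and do not say that arrays A and B came from separate cultures, so each p-value measures the spread between these arrays only.

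A check of the line label found that 4 of the 8 arrays did not match the named line, all 4 in 1 of the 2 stages. A difference between the stages therefore cannot be told apart from a difference between cell lines, and this holds for every stage value below. In whole aggregates, a lower signal from fewer cells of a type and from less RNA per cell cannot be told apart either.

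ABC proteins share a nucleotide-binding domain that hydrolyses ATP. Most of them use it to move lipids, peptides, bile salts, haem precursors or drug conjugates across the plasma membrane or the membranes of lysosomes, peroxisomes and mitochondria, while subfamilies E and F have no membrane domain and act in translation. Efflux pumps such as ABCG2 are known from stem cells, and the sterol exporters ABCA1 and ABCG1 from cells that handle lipoproteins.

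Of the 23 members with enough signal to test, 13 were higher in embryoid bodies than in undifferentiated cells at 0 mM and 2 were lower. These 15 are 65.2% of the 23, beside 52.7% called among all genes tested. ABCA1, the cholesterol exporter, was higher by 2.94 ± 0.18 on the log2 scale. With ethanol, 1 member was called in embryoid bodies, ABCC10, which was higher by 0.93 ± 0.07. No member was called with ethanol in undifferentiated cells. Each ± here and below is the standard error of a log2 difference from limma with 2 arrays a group, and a call is an adjusted p (Benjamini-Hochberg over 14079 genes) under 0.05.

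A member was tested when at least 2 of the 8 arrays read it above their own median signal, which ranged from 69.18 to 102.3. This left 23 members, namely 5 of subfamily A, 5 of B, 4 of C, 2 of D, the 1 of E, all 3 of F and 3 of G. Signals are the deposited values returned to a linear scale, and signals of different probe sets do not rank the amounts of their RNAs. The lowest mean signal of a tested member was 82.46 (ABCB9) and the highest of an untested one was 42.05 (ABCC9). The members not tested were ABCA4, ABCA6, ABCA8, ABCA9, ABCA12, ABCA13, ABCB1, ABCB5, ABCB11, ABCC2, ABCC3, ABCC8, ABCC9, ABCC11, ABCC12, ABCC13, ABCD2, ABCG5 and ABCG8. Most of these are known from specialised tissues, such as ABCB11 (the bile salt export pump of the liver), ABCA4 (retina), ABCA12 (skin lipids), ABCC8 (the sulphonylurea receptor of the pancreas) and the ABCG5 and ABCG8 pair (sterol export from gut and liver). The drug efflux pump ABCB1 read 39.81 and 13.49 in embryoid bodies at 20 mM, against 26.30 and 33.11 at 0 mM, and 40.74 and 30.20 in undifferentiated cells at 20 mM, against 36.31 and 39.81 at 0 mM. The ABCB1 doses overlapped within each stage, and all 8 values lay under their array's median. ABCC13 is annotated by RefSeq as a transcribed pseudogene.

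**Figure D1:**
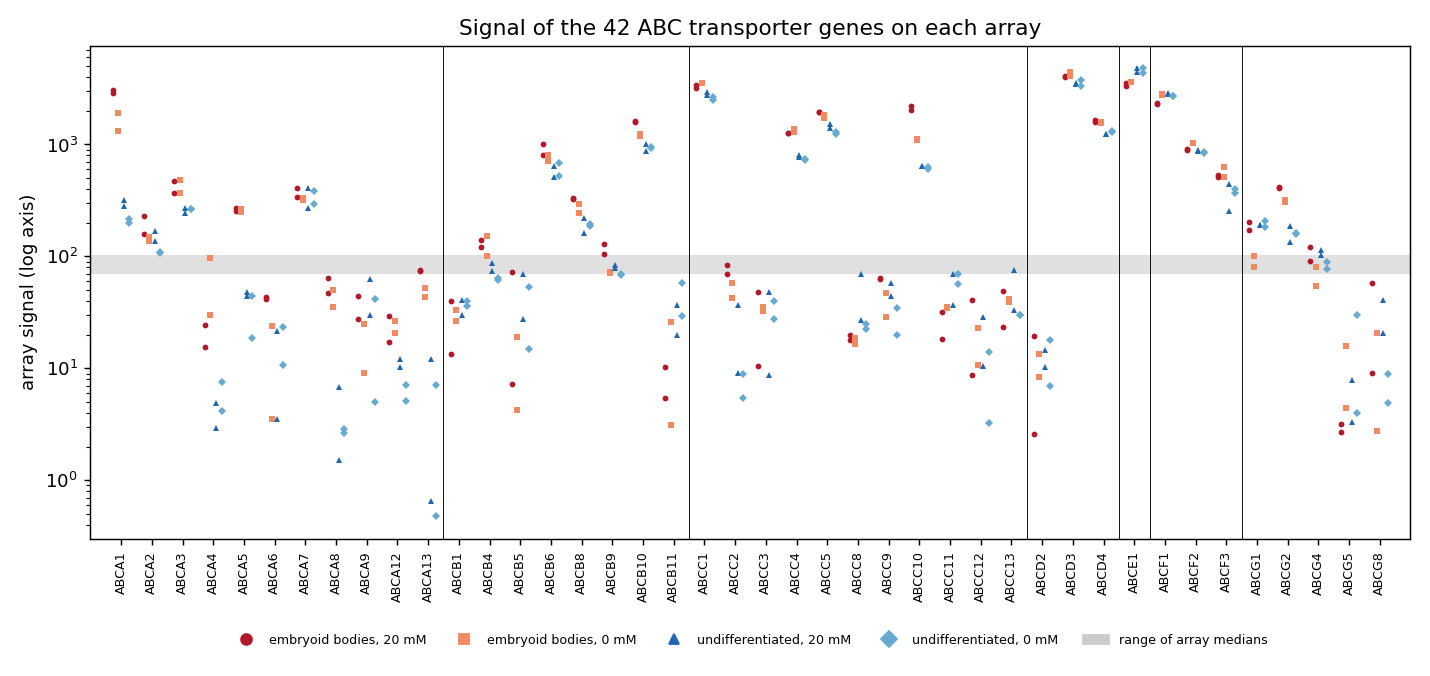
Signal of each of the 42 ABC genes on each of the 8 arrays (log axis), with vertical lines between subfamilies A to G and a grey band for the range of the arrays' medians, 69.18 to 102.3. Subfamilies E and F lie above the band on every array, and subfamily C splits into 4 members above it and 7 with no array above its own median.

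Short motifs were counted in the promoters of the tested and the untested members, as a description with no test. RefSeq promoters (GRCh38.p14, 250 bases before to 50 after the first listed start) were matched for 33 of the 42 members, and the 9 others are not described. A GC box (GGGCGG on either strand), the motif bound by Sp factors, stood in 16 of the 20 matched tested members, in 2 of the 13 matched untested members and in 44.6% of all 27305 promoters. With any listed start these were 18 of 20, 3 of 13 and 48.3%. The median ratio of observed to expected CpG was 0.845 in the tested members, 0.171 in the untested ones and 0.58 in all promoters. A CCAAT box (CCAAT) was found in 4 of the 20 and 2 of the 13, against 35.7% of all promoters, and TATAAA in 2 and 2, against 12%. The E-box CACGTG stood in 3 and 1 (all promoters 7.43%), and the nuclear receptor half-site AGGTCA in 2 and 0 (13.9%). With any listed start CCAAT stood in 5 and 5 (39.7%) and TATAAA in 3 and 4 (14%). CACGTG then stood in 6 and 2 (8.77%) and AGGTCA in 3 and 0 (16.5%). Both strands were searched for each motif and no motif contains another. The letters describe these windows only, and no binding was measured. Shown here are the called ABCC10 (chr6:43427613-43427912, plus strand, 5 GC boxes), the sterol exporter ABCA1 (chr9:104928106-104928405, minus strand, 3 GC boxes), the strongly read but GC-box-free ABCE1 (chr4:145098061-145098360, plus strand) and the untested ABCC2 (chr10:99782390-99782689, plus strand, no GC box), written 5′ to 3′ with GC boxes in capitals.
ABCC10: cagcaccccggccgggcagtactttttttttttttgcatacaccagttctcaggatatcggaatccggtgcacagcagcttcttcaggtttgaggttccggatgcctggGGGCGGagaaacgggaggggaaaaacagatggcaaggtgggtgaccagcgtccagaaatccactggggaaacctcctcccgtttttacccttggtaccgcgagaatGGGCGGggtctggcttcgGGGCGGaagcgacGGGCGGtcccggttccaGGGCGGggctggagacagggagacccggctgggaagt
ABCA1: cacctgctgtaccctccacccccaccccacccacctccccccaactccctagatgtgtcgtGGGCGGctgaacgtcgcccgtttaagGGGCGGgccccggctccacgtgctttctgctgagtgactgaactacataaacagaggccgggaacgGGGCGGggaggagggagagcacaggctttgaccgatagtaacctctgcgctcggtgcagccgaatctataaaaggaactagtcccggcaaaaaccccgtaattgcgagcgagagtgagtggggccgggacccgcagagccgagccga
ABCE1: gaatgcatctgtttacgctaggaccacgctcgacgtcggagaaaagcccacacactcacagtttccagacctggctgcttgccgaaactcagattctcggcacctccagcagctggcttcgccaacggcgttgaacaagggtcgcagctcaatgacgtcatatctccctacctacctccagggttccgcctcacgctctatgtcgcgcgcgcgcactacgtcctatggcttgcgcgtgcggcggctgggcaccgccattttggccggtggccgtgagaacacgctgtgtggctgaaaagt
ABCC2: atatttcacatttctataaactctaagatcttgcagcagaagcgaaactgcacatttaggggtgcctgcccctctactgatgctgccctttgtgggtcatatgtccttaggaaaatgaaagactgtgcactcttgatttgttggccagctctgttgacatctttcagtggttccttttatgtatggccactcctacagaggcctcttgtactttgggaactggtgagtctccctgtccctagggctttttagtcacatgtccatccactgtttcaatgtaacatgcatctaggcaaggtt
The ABCE1 window held no GC box but a CpG ratio of 1.06, the ABCC10 window one of 0.758 and the ABCA1 window one of 0.782, while the ABCC2 window had 0.066. ABCC2, the canalicular conjugate pump of the liver, read 83.18 and 69.18 in embryoid bodies at 20 mM, against 42.66 and 57.54 at 0 mM, and 9.120 and 37.15 in undifferentiated cells at 20 mM, against 8.913 and 5.495 at 0 mM. Its embryoid body arrays were all above its undifferentiated ones, and all 8 lay under their array's median.

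The stage comparison asked which members differ between embryoid bodies and undifferentiated cells. At 0 mM 13 members were higher in embryoid bodies and 2 (ABCG1 and ABCE1) lower by limma, where 28% of all genes tested were higher and 24.7% lower. At 20 mM 13 were higher and 2 (ABCE1 and ABCF1) lower, where 29.2% and 27.1% of all genes were. Among those counted as higher at both doses is ABCA5, which passed the filter only through its embryoid body arrays and so had to differ. The median log2 difference over the 23 members was 0.399 at 0 mM and 0.515 at 20 mM, beside 0.0166 over all genes at either dose. In 19 members at 0 mM both embryoid body arrays lay above both undifferentiated ones, and in 2 below, where 40.3% and 38.1% of all genes did so. The split depends on the scaling. After centring each array on its median, 6 members were higher and 2 lower at 0 mM, and 7 higher and 5 lower at 20 mM, with the median of all genes at -0.249 and -0.399. Median centring ended the calls of ABCA3, ABCC5 and ABCD4 at both doses, of ABCB8, ABCB10, ABCC1 and ABCF2 at 0 mM and of ABCB4, ABCB6 and ABCB9 at 20 mM. Without array A of embryoid bodies at 0 mM, 9 members were called at 0 mM in place of 15. Markers of other cell types moved with the stage: all 8 tested yolk sac and liver endoderm markers, all 7 mesenchyme markers and 5 of 6 neural markers were higher in embryoid bodies at 0 mM, and 5 of 8 pluripotency markers were lower. The endoderm genes FGB and AHSG, the mesenchyme gene TWIST1, the heart gene MYL7 and both tested blood genes, GATA1 and HBE1, passed the filter through the arrays of 1 stage only. Of 5 tested heart and smooth muscle markers 2 were higher, of 3 endothelial ones 2 lower, of 2 blood ones 1 higher, and of 6 epithelial ones 1 higher and 2 lower. The endothelial genes CDH5, TIE1 and ESAM and the blood genes PTPRC, CD14 and SPI1 were too dim to test. The summed signal of the endoderm list was 39500 to 40900 in embryoid bodies at 20 mM and 29200 to 29300 at 0 mM, against 691 to 956 in undifferentiated cells at 20 mM and 637 to 859 at 0 mM. The summed signal of the pluripotency list was 79500 to 83400 and 91300 to 93800 in embryoid bodies at 20 and 0 mM, against 120000 to 126000 and 117000 to 121000 in undifferentiated cells at 20 and 0 mM. The markers' part in the ABC differences was not tested.

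**Figure D2:**
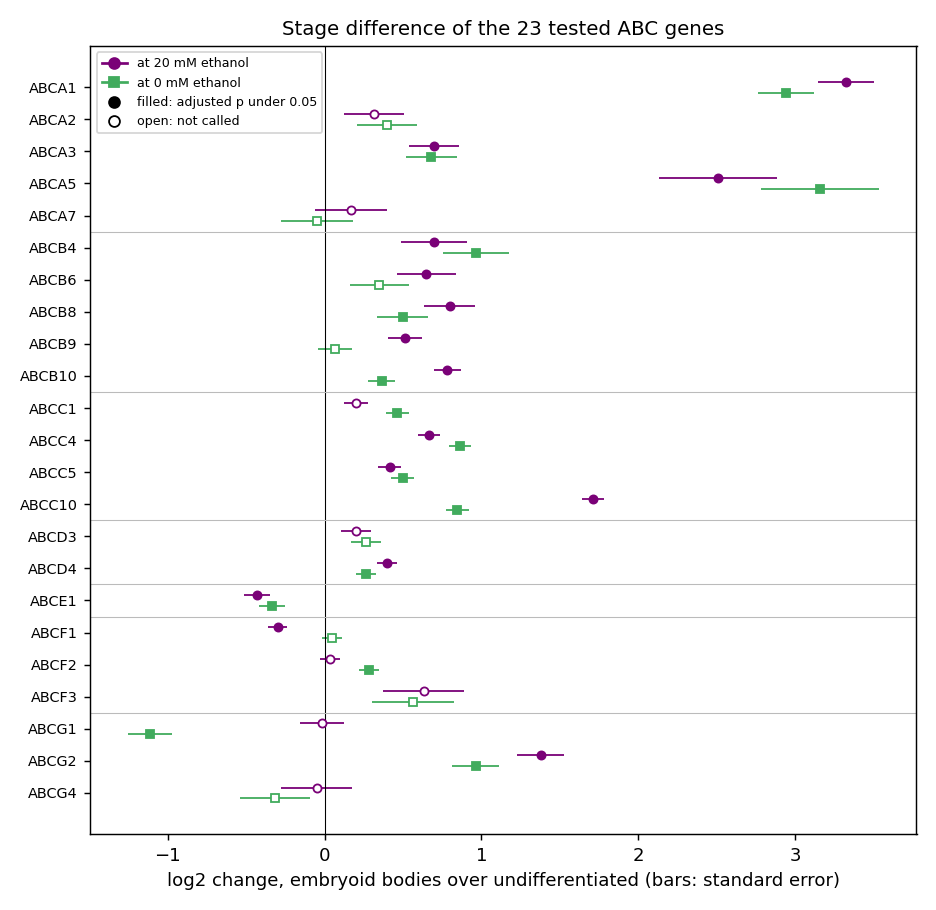
Log2 difference of embryoid bodies over undifferentiated cells for the 23 tested ABC genes at 20 mM (circles) and 0 mM (squares), with standard errors; filled symbols passed an adjusted p of 0.05. ABCA1 and ABCA5 lie between 2.51 and 3.32, ABCA5 against undifferentiated signals under their arrays' medians, and ABCG1 is the only one of the 23 below -0.5, at 0 mM.

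The ethanol comparison asked which members differ between 20 mM and 0 mM within a stage. In embryoid bodies 1 of the 23 members was higher and 0 lower, where 0.071% of all genes tested were called in either direction. The member median was 0.133 against 0.0166 for all genes, with 15 differences above 0 and 8 below, where 50.2% of all genes were above 0. An unadjusted p under 0.05 was found for 9 members and for 3137 of all 14079 genes. The 15 and the 9 include ABCB9, which passed the filter only through arrays at 20 mM. In undifferentiated cells 0 of 23 were called, where 0.0071% of all genes were, and the smallest adjusted p of a member was 0.636. There 3 members and 986 of all 14079 genes had an unadjusted p under 0.05. Both arrays at 20 mM lay above both at 0 mM for 11 members in embryoid bodies and below for 5 (29.4% and 28.1% of all genes), and for 11 and 1 members in undifferentiated cells (15.4% and 12.1%). Each count of 11 includes ABCB9, which the filter favoured in that direction. The difference between the ethanol effects of the stages was called for 0 of 23 members, where 0% of all genes were called. For it 7 members and 1828 of all 14079 genes had an unadjusted p under 0.05, and the smallest adjusted p of a member was 0.188 (ABCC10).

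The count with ethanol in embryoid bodies depended on the processing. It was 0 without any 1 of the 8 arrays and 0 with no filter. It was 5 (4 higher, 1 lower) with trended and robust variances, and 9 (3 higher, 6 lower) after median centring, which put the median of all genes at -0.266. Ethanol changes in embryoid bodies also went with signal: the median change was 0.332 in the dimmest of 10 equal bins of the tested genes and -0.0997 in the brightest. ABCB9 and ABCG4 belong to the dimmest bin, whereas ABCC10 lies in the seventh, where the median was -0.0332. The median signal of an array was 102.3 on both arrays of embryoid bodies at 20 mM, against 85.11 on both at 0 mM. Mesenchyme markers summed to 54600 to 55200 in embryoid bodies at 20 mM, against 31900 to 32100 at 0 mM, with 7 of 7 changes above 0 and 0 called. Of the endoderm markers 1 of 8 was called, AHSG, a plasma glycoprotein of the fetal liver, at 1.61 (adjusted p = 0.00956). The part of these values in the ethanol results was not tested.

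**Figure D3:**
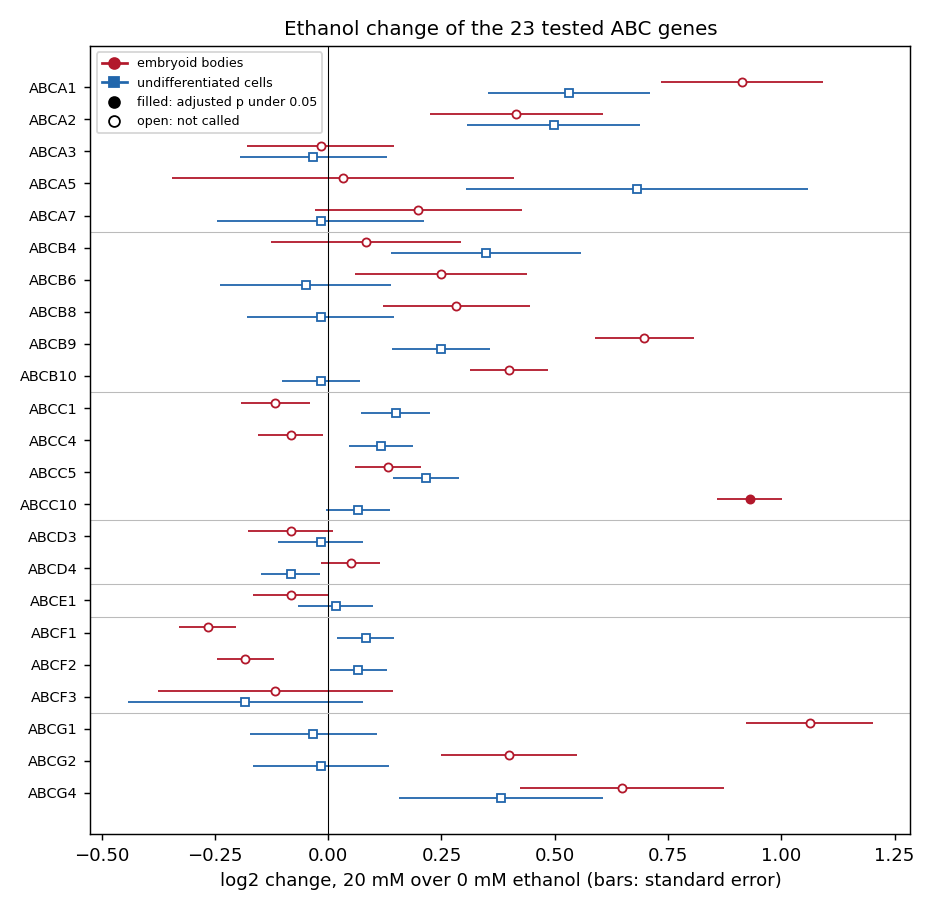
Log2 change of 20 mM over 0 mM ethanol for the 23 tested ABC genes in embryoid bodies (circles) and undifferentiated cells (squares), with standard errors; filled symbols passed an adjusted p of 0.05. ABCC10 in embryoid bodies, at 0.93, is the only filled symbol, and ABCG1, at 1.06, lies to its right with a wider error.

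Subfamily A holds lipid transporters. Of its 5 tested members 3 were higher in embryoid bodies at 0 mM (ABCA1, ABCA3 and ABCA5) and the same 3 at 20 mM, and 0 were called with ethanol in either stage. ABCA1, which loads cholesterol and phospholipid onto apolipoprotein A-I, read 2884 and 3090 in embryoid bodies at 20 mM, against 1318 and 1905 at 0 mM, and 316.2 and 281.8 in undifferentiated cells at 20 mM, against 199.5 and 213.8 at 0 mM. All 4 embryoid body arrays were above all 4 undifferentiated ones, and at both stages both 20 mM arrays lay above both 0 mM arrays. ABCA1 was 7.67-fold higher in embryoid bodies at 0 mM (2.94 ± 0.18, adjusted p = 0.000161) and differed by 3.32 ± 0.18 at 20 mM (adjusted p = 9.94e-05). The call at 0 mM was lost with averaged probe sets (1.65, adjusted p = 0.0533). Its ethanol changes, 0.91 ± 0.18 in embryoid bodies (adjusted p = 0.0917) and 0.53 ± 0.18 in undifferentiated cells (adjusted p = 0.636), were not called. A second ABCA1 probe set, 203504_s_at, gave 0.51 and 0.07 for the same ethanol changes and 3.07 and 3.52 for the stage at 0 and 20 mM.

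ABCA5, a lysosomal member, read 269.2 and 257.0 in embryoid bodies at 20 mM, against 251.2 and 263.0 at 0 mM, and 44.67 and 47.86 in undifferentiated cells at 20 mM, against 44.67 and 18.62 at 0 mM. The stages did not overlap. All 4 undifferentiated signals lay under the median of their arrays, so the fitted differences of 3.16 ± 0.38 at 0 mM (adjusted p = 0.00137) and 2.51 ± 0.38 at 20 mM (adjusted p = 0.00258) are set against a level that the array may not resolve. Both calls were lost with averaged probe sets (adjusted p 0.157 and 0.0676). Without array A of undifferentiated cells at 0 mM, ABCA5 was the 1 member called with ethanol in undifferentiated cells, at 1.31.

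ABCA3, which fills lamellar bodies with surfactant lipid in the lung, read 371.5 and 467.7 in embryoid bodies at 20 mM, against 478.6 and 371.5 at 0 mM, and 269.2 and 245.5 in undifferentiated cells at 20 mM, against 263.0 and 263.0 at 0 mM. The doses overlapped within each stage and the stages did not overlap. ABCA3 was higher in embryoid bodies by 0.68 ± 0.16 at 0 mM (adjusted p = 0.0156) and by 0.70 ± 0.16 at 20 mM (adjusted p = 0.013). The call at 0 mM was lost without array A or B of undifferentiated cells or array A of embryoid bodies at that dose (adjusted p 0.0622, 0.0599 and 0.0697), and the call at 20 mM without array B of either stage (0.0593 and 0.0646). Both calls were also lost with quantile normalisation (0.0614 and 0.061). ABCA2, a lipid transporter of late endosomes that is abundant in brain, read 158.5 and 229.1 in embryoid bodies at 20 mM, against 138.0 and 147.9 at 0 mM, and 138.0 and 169.8 in undifferentiated cells at 20 mM, against 109.6 and 107.2 at 0 mM. Both of its 20 mM arrays were above both 0 mM arrays in each stage, and its ethanol changes of 0.42 ± 0.19 and 0.50 ± 0.19 in embryoid bodies and undifferentiated cells had adjusted p of 0.268 and 0.691. ABCA7, a close relative of ABCA1, had an ethanol change of 0.20 in embryoid bodies and a stage difference of -0.05 at 0 mM, with no call in any comparison.

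The sterol export partners, among them the nuclear receptors that drive ABCA1 and ABCG1 and the lipoproteins that accept their cholesterol, had 10 tested genes and 0 calls with ethanol in either stage. Their median ethanol change in embryoid bodies was -0.116, with 3 of 10 above 0. At 0 mM 5 of the 10 were higher in embryoid bodies and 1 lower, and at 20 mM 3 were higher and 2 lower. APOA1, the acceptor for ABCA1 and also on the endoderm marker list, differed by 6.03 at 0 mM (adjusted p = 3.2e-05), PLTP, a plasma phospholipid carrier, by 0.56 (0.0163) and SREBF2, the activator of sterol synthesis, by -0.50 (0.0382). NR1H3, the sterol sensor LXR alpha, had mean signals of 309.0 in embryoid bodies at 20 mM, against 402.7 at 0 mM, a change of -0.38 with an adjusted p of 0.138. RXRA, another nuclear receptor on the list, went the other way there, with a change of 0.37 and an adjusted p of 0.148.

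Subfamily B combines peptide, lipid and mitochondrial transporters. Of its 5 tested members 3 were higher in embryoid bodies at 0 mM (ABCB4, ABCB8 and ABCB10) and all 5 at 20 mM. With ethanol 0 were called. All 5 ethanol changes in embryoid bodies were above 0 (0.083 to 0.698), but the sign of ABCB4 turned in 5 of 16 alternatives and that of ABCB6 in 1 of 18. ABCB10, a mitochondrial inner membrane protein of haem synthesis, read 1622 and 1585 in embryoid bodies at 20 mM, against 1230 and 1202 at 0 mM, and 871.0 and 1000 in undifferentiated cells at 20 mM, against 933.3 and 955.0 at 0 mM. The embryoid body arrays were separated by dose and those of undifferentiated cells were not. The ethanol change of ABCB10 was 0.40 ± 0.09 in embryoid bodies (adjusted p = 0.1) and -0.02 ± 0.09 in undifferentiated cells, and the difference between these changes was not called (adjusted p = 0.316). Its stage difference was 0.37 ± 0.09 at 0 mM (adjusted p = 0.0151) and 0.78 ± 0.09 at 20 mM (adjusted p = 0.000872). The call at 0 mM was lost without array A of undifferentiated cells (adjusted p = 0.0639) or array A or B of embryoid bodies at 0 mM (0.0738 and 0.0593).

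ABCB9, a lysosomal peptide transporter related to TAP, read 104.7 and 128.8 in embryoid bodies at 20 mM, against 70.79 and 72.44 at 0 mM, and 79.43 and 83.18 in undifferentiated cells at 20 mM, against 69.18 and 67.61 at 0 mM. The 2 embryoid body arrays at 20 mM were the highest of the 8. ABCB9 passed the filter only through arrays at 20 mM, 2 of embryoid bodies and 1 of undifferentiated cells. The filter therefore favoured a rise with ethanol in this gene. Its ethanol change in embryoid bodies, 0.70 ± 0.11, had an adjusted p of 0.0739. ABCB9 differed between the stages by 0.07 ± 0.11 at 0 mM (adjusted p = 0.635) and by 0.51 ± 0.11 at 20 mM (adjusted p = 0.0094). The call at 20 mM was lost with quantile normalisation (0.10, adjusted p = 0.505), median centring (0.10, 0.508), cyclic loess (0.13, 0.395) and trended and robust variances (0.164).

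ABCB8, a transporter of the mitochondrial inner membrane, read 323.6 and 331.1 in embryoid bodies at 20 mM, against 295.1 and 245.5 at 0 mM, and 218.8 and 162.2 in undifferentiated cells at 20 mM, against 186.2 and 195.0 at 0 mM. The stages did not overlap, and the difference was 0.50 ± 0.16 at 0 mM (adjusted p = 0.0444) and 0.80 ± 0.16 at 20 mM (adjusted p = 0.00805). The ABCB8 call at 0 mM was lost without either array of any group except undifferentiated cells at 20 mM (adjusted p 0.0574 to 0.192), and with no filter, averaged probe sets, quantile normalisation or cyclic loess (0.0854, 0.396, 0.232 and 0.127). ABCB4, which flips phosphatidylcholine into bile, read 141.3 and 120.2 in embryoid bodies at 20 mM, against 100 and 151.4 at 0 mM, and 87.10 and 74.13 in undifferentiated cells at 20 mM, against 64.57 and 61.66 at 0 mM. It was higher in embryoid bodies by 0.96 ± 0.21 at 0 mM (adjusted p = 0.0115) and 0.70 ± 0.21 at 20 mM (adjusted p = 0.0325). The ABCB4 call at 0 mM was lost without array B of undifferentiated cells at 0 mM (adjusted p = 0.0523), and that at 20 mM without either array of any group except embryoid bodies at 0 mM (0.0546 to 0.141). The call at 20 mM was further lost with no filter, quantile normalisation, cyclic loess, trended and robust variances or a replicate block (0.065, 0.257, 0.239, 0.0714 and 0.0563). Both undifferentiated ABCB4 signals at 0 mM lay under their array's median. ABCB6, a porphyrin transporter, read 812.8 and 1000 in embryoid bodies at 20 mM, against 812.8 and 707.9 at 0 mM, and 512.9 and 645.7 in undifferentiated cells at 20 mM, against 676.1 and 524.8 at 0 mM. The doses overlapped at each stage, and the stage difference was 0.65 ± 0.19 at 20 mM (adjusted p = 0.0294), and 0.35 ± 0.19 at 0 mM (adjusted p = 0.171). The ABCB6 call was lost without array A of undifferentiated cells or array B of embryoid bodies at 20 mM (0.125 and 0.138), and with no filter, quantile normalisation, a replicate block or the arrays of the contrast alone (0.0598, 0.0599, 0.0516 and 0.0527).

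The mitochondrial haem and iron-sulphur genes that work beside ABCB6, ABCB8 and ABCB10 mostly differed the other way between the stages. Of 11 tested, 7 were lower in embryoid bodies at 0 mM and 1 higher, and at 20 mM 5 were lower and 1 higher. FECH, which puts iron into haem, differed by -0.48 at 0 mM (adjusted p = 0.00314), CPOX, an enzyme of porphyrin synthesis, by -0.55 (0.00414) and GLRX5, an iron-sulphur assembly factor, by -0.51 (0.00214), whereas the iron importer SLC25A37 differed by 0.42 (0.0362). With ethanol 0 of the 11 were called in either stage. The peptide transporters that carry other symbols than ABC, TAP1 and TAP2, and the chloride channel CFTR had 0 calls with ethanol. At 0 mM TAP2 was lower in embryoid bodies, at -0.63 (adjusted p = 0.00421). CFTR read 302.0 and 269.2 in embryoid bodies at 20 mM and 257.0 and 269.2 at 0 mM, against 8.913 and 10.72 in undifferentiated cells at 20 mM and 10.23 and 11.22 at 0 mM. It passed the filter only through embryoid body arrays and its undifferentiated signals lay far under their medians, so no fold is given. Of the 7 peptide loading partners of TAP, 4 were higher and 3 lower at 0 mM. Among the lower was PSMB8, an immunoproteasome subunit, at -1.91 (0.000137), while PSMB9, also lower, passed the filter only through undifferentiated arrays.

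Subfamily C holds exporters of glutathione and glucuronide conjugates, the multidrug resistance proteins. All 4 tested members were higher in embryoid bodies at 0 mM and 3 at 20 mM (not ABCC1), and ABCC10 was the 1 member called with ethanol. The 7 other members had no array above its median. ABCC10, or MRP7, an exporter of oestradiol glucuronide and of taxane drugs, read 2042 and 2188 in embryoid bodies at 20 mM, against 1122 and 1096 at 0 mM, and 645.7 and 645.7 in undifferentiated cells at 20 mM, against 602.6 and 631.0 at 0 mM. The 4 groups followed each other without overlap, with the step between the doses wide in embryoid bodies and narrow in undifferentiated cells. The ethanol change was 1.91-fold in embryoid bodies (0.93 ± 0.07, 95% interval 0.755 to 1.11, adjusted p = 0.044) and 0.07 ± 0.07 in undifferentiated cells (adjusted p = 0.923). The difference between them, 0.86 ± 0.10, was not called (adjusted p = 0.188). ABCC10 was higher in embryoid bodies by 0.85 ± 0.07 at 0 mM (adjusted p = 0.000421) and by 1.71 ± 0.07 at 20 mM (adjusted p = 4.48e-05).

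The ABCC10 call rests on a narrow margin. It was lost when any 1 of the 8 arrays was left out, with a log2 change of 0.88 to 0.98 and an adjusted p of 0.0651 to 0.158. It held in 6 of 19 alternatives, over which the change ranged from 0.556 to 0.99 and the adjusted p from 0.00444 to 0.199. The array carries 2 probe sets that name only ABCC10, and the values above are those of 213485_s_at. The other, 215873_x_at, read 707.9 and 631.0 in embryoid bodies at 20 mM, against 575.4 and 602.6 at 0 mM, and 446.7 and 245.5 in undifferentiated cells at 20 mM, against 346.7 and 269.2 at 0 mM. Its doses were separated in embryoid bodies and overlapped in undifferentiated cells. In a limma fit over all 25802 probe sets tested, 1 probe set was called with ethanol in embryoid bodies and neither ABCC10 probe set was, with changes of 0.93 (adjusted p = 0.0773) and 0.18 (adjusted p = 0.773). The change of 215873_x_at turned to -0.10 after median centring, while that of 213485_s_at became 0.65. Both probe sets were called for the stage at 0 mM, at 0.85 (adjusted p = 0.000822) and 0.95 (0.0401), and at 20 mM, at 1.71 (9.5e-05) and 1.01 (0.0299).

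RefSeq places ABCC10 on chromosome 6, where it overlaps the gene DLK2, a transmembrane relative of the adipocyte regulator DLK1, and a microRNA gene. DLK2, chosen after the ABCC10 values were seen, read 144.5 and 144.5 in embryoid bodies at 20 mM, against 107.2 and 79.43 at 0 mM. In undifferentiated cells it read 114.8 and 107.2 at 20 mM, against 131.8 and 104.7 at 0 mM. Both DLK2 arrays of embryoid bodies at 20 mM were above the other 6. Its ethanol change there was 0.65 ± 0.17 (adjusted p = 0.128).

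**Figure D4:**
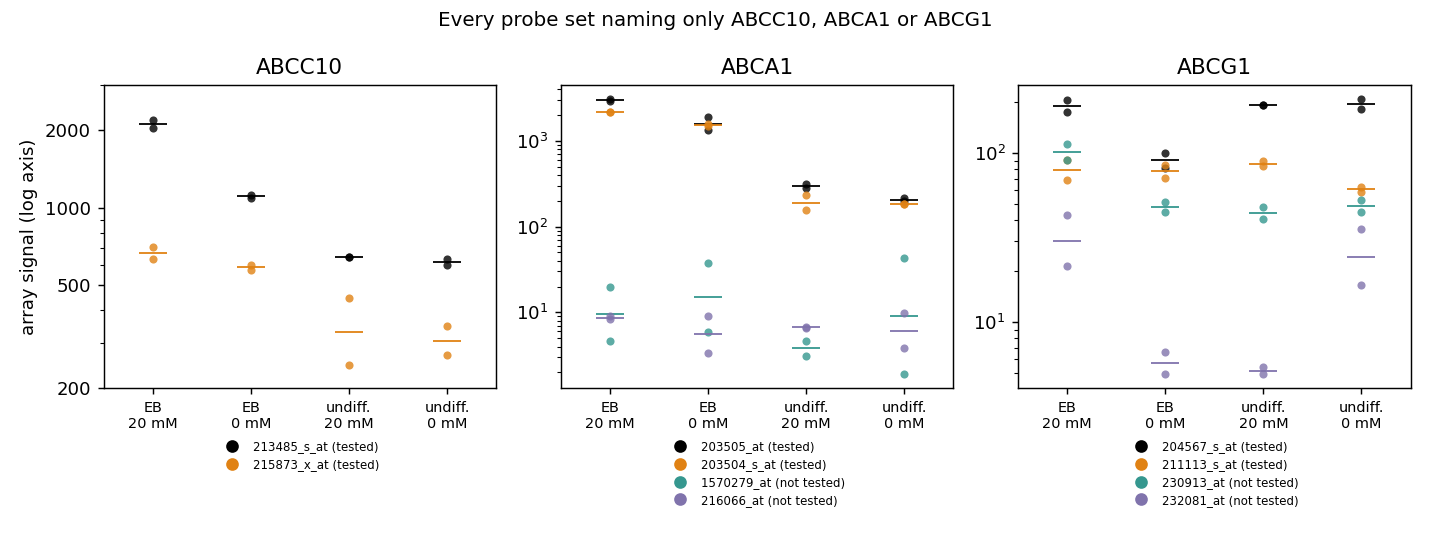
Signal of every probe set that names only ABCC10 (2), ABCA1 (4) or ABCG1 (4) on each array (log axes, different ranges), with short lines at the geometric mean of each group. For ABCC10 the brighter probe set stands at 2042 and 2188 in embryoid bodies at 20 mM, against 1122 and 1096 at 0 mM, and the dimmer one at 707.9 and 631.0, against 575.4 and 602.6.

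ABCC1, or MRP1, the exporter of glutathione conjugates, read 3388 and 3162 in embryoid bodies at 20 mM, against 3548 and 3548 at 0 mM, and 2951 and 2754 in undifferentiated cells at 20 mM, against 2512 and 2630 at 0 mM. The doses were separated at both stages, in opposite directions. The ethanol changes were -0.12 ± 0.08 in embryoid bodies (adjusted p = 0.414) and 0.15 ± 0.08 in undifferentiated cells (adjusted p = 0.778). ABCC1 was higher in embryoid bodies by 0.47 ± 0.08 at 0 mM (adjusted p = 0.00404), while the 0.20 ± 0.08 at 20 mM was not called (adjusted p = 0.0686). Its second tested probe set, 202805_s_at, differed by 0.25 at 0 mM (adjusted p = 0.314 over probe sets). It changed with ethanol by -0.40 in embryoid bodies and -0.0831 in undifferentiated cells, so the opposite directions were those of the first probe set. The call at 0 mM was also lost with averaged probe sets (0.0529).

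ABCC4, or MRP4, an exporter of cyclic nucleotides and prostaglandins, read 1259 and 1259 in embryoid bodies at 20 mM, against 1380 and 1288 at 0 mM, and 776.2 and 812.8 in undifferentiated cells at 20 mM, against 724.4 and 741.3 at 0 mM. Its stages did not overlap, and its doses were separated in opposite directions in the 2 stages. It was higher in embryoid bodies by 0.86 ± 0.07 at 0 mM (adjusted p = 0.000399) and 0.66 ± 0.07 at 20 mM (adjusted p = 0.000781), and its other 2 tested probe sets differed by 1.01 and 0.93 at 0 mM, both called over all probe sets. With averaged probe sets the call at 0 mM was lost (0.0753). The ethanol changes of those other sets in embryoid bodies were 0.0664 and 0.15, against -0.0831 for the first. ABCC5, or MRP5, also an exporter of cyclic nucleotides, read 1950 and 1950 in embryoid bodies at 20 mM, against 1820 and 1738 at 0 mM, and 1413 and 1514 in undifferentiated cells at 20 mM, against 1230 and 1288 at 0 mM. The 4 groups did not overlap, and the ethanol changes were 0.13 ± 0.07 in embryoid bodies (adjusted p = 0.335) and 0.22 ± 0.07 in undifferentiated cells (adjusted p = 0.636). Its other tested probe sets did not agree on the ethanol change in embryoid bodies. There 226363_at changed by -0.27 and 1558460_at by 0.65, neither called. In undifferentiated cells they changed by 0.30 and -0.08. The ABCC5 stage difference was 0.50 ± 0.07 at 0 mM (adjusted p = 0.00273) and 0.42 ± 0.07 at 20 mM (0.00464), but 1.96 and 1.40 from the probe set 226363_at and -0.32 and 0.42, not called, from 1558460_at.

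The glutathione genes, which make and attach the tag that ABCC1 and its relatives export, had 12 tested members with 0 calls with ethanol in either stage. At 0 mM 4 were higher in embryoid bodies and 2 lower, and at 20 mM 4 were higher and 5 lower. MGST2, a microsomal transferase, differed by 1.64 at 0 mM (adjusted p = 0.00021) and GSTM3, a cytosolic one, by 1.20 (0.000383). GCLM, the regulatory subunit of glutathione synthesis, differed by -0.91 (0.000788). Of 7 tested uptake carriers, which bring in the compounds that these pumps export, 5 were higher in embryoid bodies at 0 mM and 1 lower, led by the prostaglandin carrier SLCO2A1 at 2.48 (adjusted p = 3.3e-05). Of 3 tested xenobiotic receptors 1 was higher, the aryl hydrocarbon receptor AHR, at 1.13 (0.000259). No uptake carrier and no xenobiotic receptor was called with ethanol. KCNJ8, the 1 tested potassium channel partner of ABCC8 and ABCC9, was called in no comparison.

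Subfamily D works in peroxisomes and lysosomes. Of 2 tested members, each read from its probe set with the highest mean signal, ABCD4 was called between the stages and ABCD3 was not. ABCD3, which brings fatty acids into peroxisomes, read 4074 and 3981 in embryoid bodies at 20 mM, against 4467 and 4074 at 0 mM, and 3467 and 3548 in undifferentiated cells at 20 mM, against 3802 and 3311 at 0 mM. Its stages did not overlap at either dose, and the differences were 0.27 ± 0.09 at 0 mM (adjusted p = 0.0574) and 0.20 ± 0.09 at 20 mM (0.12). The other tested ABCD3 probe set, 1554878_a_at, differed by 0.66 at 0 mM (adjusted p = 0.00318 over probe sets). At 20 mM it differed by 0.32 (0.0361), so it was called at both doses. ABCD4, which exports cobalamin from lysosomes, read 1660 and 1585 in embryoid bodies at 20 mM, against 1585 and 1549 at 0 mM, and 1230 and 1230 in undifferentiated cells at 20 mM, against 1318 and 1288 at 0 mM. It was higher in embryoid bodies by 0.27 ± 0.07 at 0 mM (adjusted p = 0.0176) and 0.40 ± 0.07 at 20 mM (0.00357). The ABCD4 call at 0 mM was lost without any 1 of the 4 arrays at 0 mM (adjusted p 0.0506 to 0.0891). A second probe set, 203982_s_at, gave -0.35 and -0.08 for the 2 doses, not called, and the calls were lost with averaged probe sets (0.846 and 0.441). LMBRD1, the lysosomal cobalamin partner of ABCD4, was higher by 0.85 at 0 mM (adjusted p = 0.000515). Of the 8 tested partners of subfamily D, 2 were higher at 0 mM, LMBRD1 being 1 of them, and 2 were lower.

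Subfamilies E and F act on ribosomes. ABCE1, which splits terminated ribosomes, read 3548 and 3311 in embryoid bodies at 20 mM, against 3631 and 3631 at 0 mM, and 4467 and 4786 in undifferentiated cells at 20 mM, against 4786 and 4365 at 0 mM. All 4 embryoid body arrays lay below all 4 undifferentiated ones. The difference was -0.33 ± 0.08 at 0 mM (adjusted p = 0.0187) and -0.43 ± 0.08 at 20 mM (0.00659), and -0.50 and -0.32, both called, from the second probe set. At 0 mM the call of the first was lost without array A of undifferentiated cells (adjusted p = 0.0838) or array A or B of embryoid bodies (0.0779 and 0.0791), and with quantile normalisation (0.0582) or cyclic loess (0.0571).

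ABCF1, which binds the initiation factor eIF2, read 2344 and 2291 in embryoid bodies at 20 mM, against 2818 and 2754 at 0 mM, and 2818 and 2884 in undifferentiated cells at 20 mM, against 2692 and 2692 at 0 mM. The embryoid body arrays at 20 mM were the lowest of the 8. Its ethanol changes were -0.27 ± 0.06 in embryoid bodies (adjusted p = 0.115) and 0.08 ± 0.06 in undifferentiated cells (0.871), and the difference of -0.35 ± 0.09 was not called (0.295). ABCF1 was lower in embryoid bodies at 20 mM, at -0.30 ± 0.06 (adjusted p = 0.00922, or 0.0601 with cyclic loess), with 0.05 ± 0.06 at 0 mM (0.537). ABCF2 read 891.3 and 912.0 in embryoid bodies at 20 mM, against 1023 and 1023 at 0 mM, and 871.0 and 891.3 in undifferentiated cells at 20 mM, against 851.1 and 831.8 at 0 mM. It too was separated by dose in opposite directions, with changes of -0.18 ± 0.06 (adjusted p = 0.18) and 0.07 ± 0.06 (0.914) in embryoid bodies and undifferentiated cells. The other 3 tested ABCF2 probe sets did not all follow: with ethanol in embryoid bodies 207622_s_at changed by -0.0332, 209246_at by 0.32 and 214232_at by 0.15, none called. Its stage difference of 0.28 ± 0.06 at 0 mM (adjusted p = 0.0126) was lost without array B of undifferentiated cells (0.0516) or array A or B of embryoid bodies (0.0624 and 0.0629) at that dose, with averaged probe sets (0.397) and without _x_at and _s_at probe sets (0.833). The stage difference of ABCF2 at 20 mM was 0.03 ± 0.06 (adjusted p = 0.682). ABCF3 read 512.9 and 537.0 in embryoid bodies at 20 mM, against 512.9 and 631.0 at 0 mM, and 257.0 and 446.7 in undifferentiated cells at 20 mM, against 398.1 and 371.5 at 0 mM, with no call in any comparison.

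The ribosome recycling and eIF2 partners differed mostly downward between the stages. Of 10 tested, 7 were lower in embryoid bodies at 0 mM and 1 higher, and at 20 mM 7 were lower and 0 higher. EIF2AK4, the amino acid sensing eIF2 kinase, differed by -1.48 at 0 mM (adjusted p = 0.000329), HBS1L, a ribosome rescue factor, by -0.51 (0.00228) and EIF2S2, a subunit of eIF2, by -0.33 (0.017). With ethanol 0 of the 10 were called in either stage, and 2 of 10 changes in embryoid bodies were above 0.

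Subfamily G holds transporters of sterols and drugs. Of 3 tested members ABCG2 was higher in embryoid bodies at both doses, ABCG1 was lower at 0 mM, and ABCG4 was not called. All 3 ethanol changes in embryoid bodies were above 0 (0.399 to 1.06) and 0 were called. ABCG1, which passes cholesterol to high-density lipoprotein, read 173.8 and 204.2 in embryoid bodies at 20 mM, against 81.28 and 100 at 0 mM, and 190.5 and 190.5 in undifferentiated cells at 20 mM, against 208.9 and 182.0 at 0 mM. The embryoid body arrays at 0 mM stood apart below the other 6. The ethanol change in embryoid bodies, 1.06 ± 0.14, had an adjusted p of 0.0609, that in undifferentiated cells was -0.03 ± 0.14 (0.98), and their difference was 1.10 ± 0.20 (0.243). ABCG1 was lower in embryoid bodies at 0 mM, at -1.11 ± 0.14 (adjusted p = 0.0016), and differed by -0.02 ± 0.14 at 20 mM (0.929). The other ABCG1 probe sets did not all follow. The tested 211113_s_at changed by 0.03 with ethanol in embryoid bodies and differed by 0.35 between the stages at 0 mM, not called. The untested 230913_at read 91.20 and 112.2 in embryoid bodies at 20 mM, against 51.29 and 44.67 at 0 mM, and 40.74 and 47.86 in undifferentiated cells at 20 mM, against 44.67 and 52.48 at 0 mM.

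ABCG2, the breast cancer resistance protein, read 416.9 and 407.4 in embryoid bodies at 20 mM, against 316.2 and 309.0 at 0 mM, and 134.9 and 186.2 in undifferentiated cells at 20 mM, against 162.2 and 158.5 at 0 mM. All 4 embryoid body arrays were above all 4 undifferentiated ones, and the doses were separated in embryoid bodies only. ABCG2 was higher in embryoid bodies by 0.96 ± 0.15 at 0 mM (adjusted p = 0.0034) and by 1.38 ± 0.15 at 20 mM (0.000844), and its ethanol changes were 0.40 ± 0.15 (0.202) in embryoid bodies and -0.02 ± 0.15 (0.988) in undifferentiated cells. ABCG4, a sterol transporter known from brain, had a mean signal of 89.13 over the 8 arrays and ethanol changes of 0.65 ± 0.23 in embryoid bodies (adjusted p = 0.181) and 0.38 ± 0.23 in undifferentiated cells (0.816).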

How the data were processed

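The authors deposited log10 signals for 54675 probe sets on each array. The submitters' processing notes name RMA with no version, but the values go against it: on a linear scale each array has a trimmed mean near 500, a scaling RMA does not use. They carry 2 decimals, so the smallest log2 step is 0.0332. How probe sets were summarised is not given in the sources used here. Values were converted to log2, the 62 control probe sets removed, and the 1801 probe sets naming several genes and those naming none left out. Genes with at least 2 arrays above their array's median were fitted with limma 3.58.1 in R 4.3.3 (lmFit and eBayes, 8 arrays, 4 group means, 4 residual and 1.81 prior degrees of freedom) with Benjamini-Hochberg adjustment over 14079 genes. The fit was tested on simulated data. Like-lettered arrays did not deviate together (correlations -0.0263 to 0.0492), so no pairing was used. Only 2 arrays a group limit the precision.

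The members, probe set rule, partner and marker lists were chosen with earlier results of these data known, the ABCC10 call included. Tested members with all 8 values were those called with ethanol and the 3 with the smallest p in each direction of each ethanol contrast. To these came the called members with the largest stage differences at 0 mM and the member with the highest mean signal of each subfamily. The untested ABCB1, ABCC2, ABCA8 and ABCC11 are also given with all 8 values, outside this rule. Alternatives covered the filter, the choice of probe set, the scaling, the variance model, a block for the array letter, a pseudocount and leaving out arrays.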

Additional observations from a re-analysis of the deposited data

Results flagged for a closer look

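In 4 of 23 members both embryoid body arrays at 20 mM lay below both at 0 mM while both undifferentiated arrays at 20 mM lay above both at 0 mM. This pattern held in 3.03% of all genes tested, and the opposite one in 0 members and 3.23% of all genes. The embryoid body ethanol change less the undifferentiated one was -0.3488 for ABCF1, -0.2658 for ABCC1, -0.2491 for ABCF2 and -0.1993 for ABCC4 on the log2 scale. The limma test of this difference called none of the 4 (adjusted p 0.295, 0.385, 0.356 and 0.451). These values are those of the probe set with the highest mean. Other tested probe sets gave 0.0664, 0.0664 and -0.33 for ABCF2, 0.0664 and 0.28 for ABCC4 and -0.32 for ABCC1. With averaged probe sets the ABCC4 difference was 0.32.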

How the results depend on the processing

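The number of members called with ethanol in embryoid bodies (1) was 0 with no filter, with probe sets averaged per gene, without the _x_at and _s_at probe sets (which leave 13 members), with the probe set of highest SD, with a replicate block and with the arrays of the contrast alone; 0 to 0 without any 1 array; 3 with a filter at the 75th percentile, 5 with trended and robust variances and 9 with median centring. All genes called there numbered 10, against 2 with no filter, 473 with the stricter filter, 4232 with median centring, 959 with trended variances, 35 higher and 27 lower with quantile normalisation, and 41 and 15 with a pseudocount of 16. In undifferentiated cells the member count was 0 to 1 without 1 array (1 without array A at 0 mM). For the difference between the stages' ethanol effects it was 1 with the stricter filter and 1 with trended variances, ABCC10 in both. For the stage at 0 mM (15 of 23 tested members) it was 8 of 23 with median centring, and it varied when 1 array was left out. Other choices of probe set also tested fewer members. There it was 7 of 18 with averaged probe sets, 8 of 13 without _x_at and _s_at probe sets and 8 of 14 with the highest SD. At 20 mM (15 of 23) it was 9 of 13 without _x_at and _s_at probe sets and 9 of 14 with the highest SD. Of the 2 ABCC10 probe sets (0 called with ethanol in embryoid bodies), 1 was called with the stricter filter, 1 with median centring and 1 with trended variances. ABCD4 turned to -0.0415 (averaged probe sets) and -0.35 (highest SD) for the stage at 0 mM and to -0.0831 (highest SD) and -0.0166 (median centring) at 20 mM; 215873_x_at of ABCC10 turned to -0.10 with ethanol in embryoid bodies under median centring. The cause was not tested. The replicate block lowered the ABCC10 call to an adjusted p of 0.104. Only 2 arrays a group, no detection calls and dim probe sets limit what could be called.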

Other observations

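Of the 19 members too dim to test, 5 (ABCA4, ABCA8, ABCA12, ABCA13 and ABCC2) had all 4 embryoid body arrays above all 4 undifferentiated ones, 2 (ABCC8 and ABCC11) had them all below, and 12 overlapped. The order was looked at after values were seen. The share of all genes too dim to test that show either order was not computed, so these counts show nothing particular to ABC genes. ABCA8, a lipid transporter, read 46.77 and 64.57 in embryoid bodies at 20 mM and 35.48 and 50.12 at 0 mM, against 1.514 and 6.761 in undifferentiated cells at 20 mM and 2.884 and 2.630 at 0 mM. ABCC11, a conjugate exporter known from earwax type, read 31.62 and 18.20 in embryoid bodies at 20 mM and 35.48 and 34.67 at 0 mM, against 69.18 and 37.15 in undifferentiated cells at 20 mM and 69.18 and 56.23 at 0 mM. No array read either gene above its own median, so no difference was computed.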
